A study of Caenorhabditis elegans with 12 samples.

Results

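The microRNAs described here come from 3 *Caenorhabditis elegans* genes known from neurons, *lsy-6*, *mir-124* and *mir-234*. They were chosen by gene name, as every line of the deposited count table whose precursor is one of these genes, and this gave 5 of the 375 named lines: lsy-6, miR-124-5p, miR-124-3p, miR-234-5p and miR-234-3p. Of these, lsy-6, miR-124-3p and miR-234-3p were among the 245 microRNAs with enough counts to be tested, and the 5p arms of *mir-124* and *mir-234* were not. Each hairpin precursor is cut into a 5p and a 3p arm, of which usually only the more stable one is loaded into Argonaute to repress target messages. The table gives lsy-6 with no arm.

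Small RNA was sequenced from whole worms of the wild-type strain N2 on days 1, 7, 14 and 21 of adulthood, called D1, D7, D14 and D21 here. There were 3 biological replicates at each age and 12 libraries in all, each from a pool of worms picked by hand, with no other genotype or treatment. Worms were synchronized, moved to fresh plates during the laying period to keep them from their progeny, and those that died, burst or hatched progeny inside were removed. The older samples are therefore of survivors, and whole worms hold every tissue.

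*lsy-6* is the classic example of a microRNA with a role in a single cell type: it is made in the left member of the ASE pair of taste neurons, where it represses the transcription factor gene *cog-1* and so sets the difference between the left and right ASE cells. *mir-124* belongs to a family that is conserved between animals and rich in neurons. In the worm it is made mainly in ciliated sensory neurons. Reporters of *mir-234* have also been seen in neurons. In RNA from whole worms, a change in the number of cells that make a microRNA and a change in the amount per cell cannot be told apart.

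The 3 genes lie on different chromosomes of WBcel235, the annotation used here for positions, which is a later build than the one the authors aligned to. *lsy-6* (WBGene00003088) is on chromosome V from 10647232 to 10647304 on the plus strand, between genes, with the closest protein-coding gene, C32C4.3, 89 bp away on the other strand. *mir-124* (WBGene00003319) is on chromosome IV from 11871738 to 11871833 on the plus strand, in an intron of *trpa-1*, which codes for a TRPA cation channel and is read from the same strand. Its 5p arm runs from 11871755 to 11871777 and its 3p arm from 11871798 to 11871818. *mir-234* (WBGene00003327) is on chromosome II from 14466263 to 14466358 on the minus strand, 1330 bp from the nearest protein-coding gene, *dmsr-6*. Its 3p arm runs from 14466278 to 14466298. Both *mir-124* and *mir-234* overlap an annotated non-coding RNA on the opposite strand (C29E6.8 and C13B4.6), and whether the counting used the strand is not given in the sources used here.

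The libraries held 5784056 to 16867232 counts at D1, 7320594 to 7897687 at D7, 6652468 to 7388727 at D14 and 6042140 to 11348110 at D21. Counts were normalized by TMM, which scales libraries so that most microRNAs keep their level, and are given as CPM (the count scaled to a common library size). All 12 libraries entered the same edgeR model, and its quasi-likelihood test compared the ages. Each p was adjusted by Benjamini-Hochberg across the 245 tested microRNAs, and an adjusted p under 0.05 counted as a call. The first principal component of log2 CPM held 77.9% of the variance and placed D14 replicate 1 (16.7) among the D21 libraries and D21 replicate 1 (9.17) among those of D14, so the comparisons were also made without both. The shares of microRNAs of other tissues in the same libraries are given as a description, with no test. The 16 arms of *mir-35* to *mir-42*, known from embryos and the germline, made up 2.34% ± 0.306 of a library (SD, n = 3) at D1, 9.28% ± 1.05 at D7, 20.9% ± 1.26 at D14 and 20.9% ± 0.966 at D21. The arms of the muscle microRNA gene *mir-1* took 1.43% ± 0.282 at D1 and 0.752% ± 0.161 at D21. Those of the intestinal *mir-60* took 0.0457% ± 0.0273 at D1 and 0.0139% ± 0.00703 at D21, and those of the glial *mir-228* 2.23% ± 0.208 at D1, 1.2% ± 0.145 at D7 and 3.04% ± 0.893 at D21. The D1 and D21 libraries overlapped for *mir-60* (0.0142% to 0.0616% and 0.0060% to 0.0194%). They also overlapped for *mir-228* (2.01% to 2.43% and 2.04% to 3.75%). The part of these tissue microRNAs in the results below was not tested.

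The 3 genes differed widely in level, and miR-234-3p was by far the most abundant. miR-234-3p ranked 56 to 68 by level among the microRNAs of a library, miR-124-3p 143 to 183 and lsy-6 171 to 202. miR-234-3p had more counts than miR-124-3p in 12 of 12 libraries, by 18-fold to 59.5-fold. miR-124-3p in turn had more counts than lsy-6 in 11 of 12 libraries, the exception being D7 replicate 3 with 38 counts of miR-124-3p and 48 of lsy-6. The ratio of miR-124-3p to lsy-6 counts was 1.23 to 1.94 at D1, 0.792 to 2 at D7, 1.12 to 6.13 at D14 and 2.80 to 5 at D21. Ligation and amplification in library preparation can favour some small RNAs over others, so the order of levels is that of the counts.

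**Figure D1:**
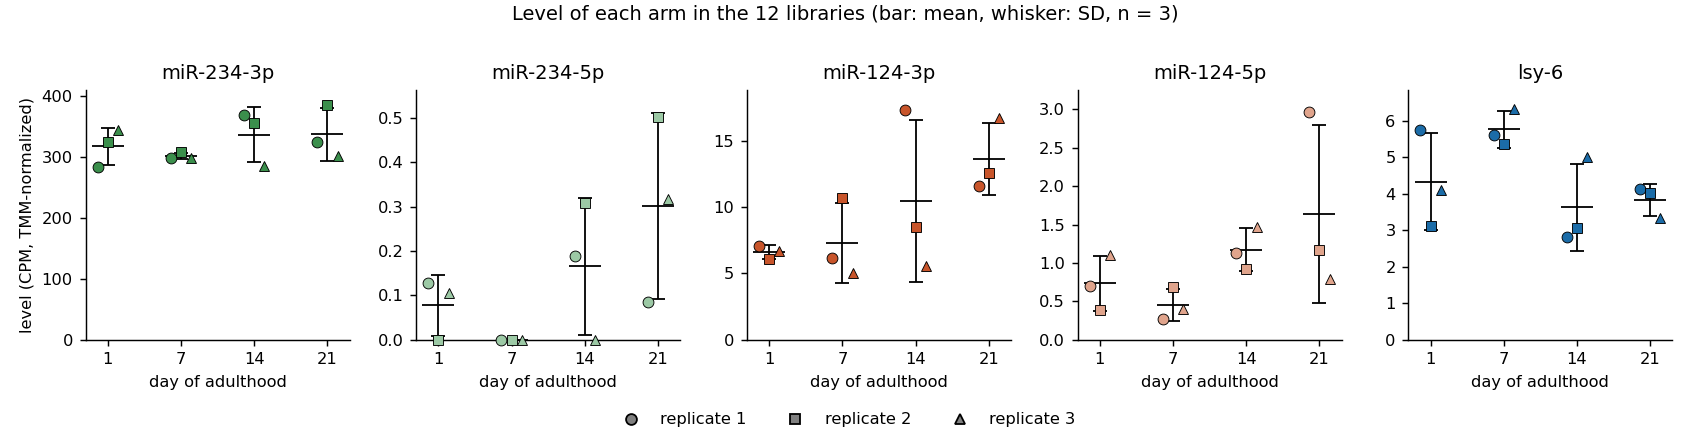
Level of each arm (y axis, TMM-normalized CPM, from 0, with its own scale in each panel) by day of adulthood (x axis). Symbols are the 3 replicates of an age, horizontal bars the mean and whiskers the SD. The miR-234-3p libraries sit between 283 and 385 CPM at every age, the D21 libraries of miR-124-3p (11.6 to 16.7 CPM) lie above all D1 libraries (6.06 to 7.11 CPM), and the D7 libraries of lsy-6 (5.36 to 6.33 CPM) lie above those of D14 and D21.

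miR-124-3p, the main product of the sensory neuron gene *mir-124*, was higher at D21 than at D1, and was the only one of the 3 tested microRNAs with a comparison between ages that passed the test. It had 111, 31 and 127 counts in the D1 libraries (replicates 1 to 3), 45, 94 and 38 at D7, 92, 55 and 38 at D14 and 137, 75 and 105 at D21. As CPM these were 7.11, 6.06 and 6.70 at D1, 6.16, 10.7 and 5.01 at D7, 17.3, 8.46 and 5.59 at D14, and 11.6, 12.5 and 16.7 at D21. In TMM-normalized CPM the D1 libraries lay close together and below all D21 libraries. The D14 libraries spanned almost the whole range of the other ages, with replicate 1 of D14 the highest of the 12. By library totals the D1 libraries were at 9.55, 5.36 and 7.53 CPM, less close together and still below all D21 libraries. The means were 6.62 ± 0.529 CPM (SD, n = 3) at D1, 7.30 ± 3.02 at D7, 10.4 ± 6.10 at D14 and 13.6 ± 2.72 at D21. In this order, neighbouring ages differed by less than the spread between their libraries.

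Between D1 and D21 the level of miR-124-3p rose 2.04-fold, a log2 fold change of 1.03 (SE 0.38, 95% interval 0.20 to 1.85, adjusted p = 0.0267 by edgeR's quasi-likelihood test), and was higher in 3 of 3 libraries than in any D1 library. Such calls were common between these ages: 71.0% of the 245 microRNAs passed the test, 86 higher and 88 lower, and the libraries of the ages did not overlap for 73.5%. The slope with age was 0.054 log2 units a day (SE 0.018, adjusted p = 0.0171 by edgeR), where 68.2% of the 245 passed. The test for any difference over the 4 ages gave F = 3.09 (adjusted p = 0.0782 by edgeR), with 74.3% of the 245 passing. The call at D21 changed with the libraries and the scaling used, and leaving out a D1 library raised the SE from 0.38 to between 0.43 and 0.46. It was lost without D1 replicate 1 (1.01, adjusted p = 0.0696), D1 replicate 2 (0.84, adjusted p = 0.0982), D1 replicate 3 (0.93, adjusted p = 0.0913) or D21 replicate 3 (0.70, adjusted p = 0.161), and with scaling by total counts (0.83, adjusted p = 0.0697), where the adjusted p of all alternatives, DESeq2 among them, ran from 0.0149 to 0.161. The slope was lost without D1 replicate 2 (0.048, adjusted p = 0.0534) or D21 replicate 3 (0.039, adjusted p = 0.105), and with scaling by total counts (0.041, adjusted p = 0.0621).

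At D7 and D14 no difference of miR-124-3p from D1 passed the test. The log2 fold change was 0.14 at D7 (95% interval -0.69 to 0.97, adjusted p = 0.827 by edgeR), and 39.2% of the 245 microRNAs passed, with 54.7% not overlapping between D7 and D1. It was 0.64 at D14 (95% interval -0.19 to 1.47, adjusted p = 0.158), and 69.0% passed, with 69.8% not overlapping between D14 and D1. In both comparisons 0 of the 3 members passed and the libraries of all 3 overlapped. The upper ends of these intervals for miR-124-3p are close to a doubling at D7 and beyond it at D14, so a rise of that size is within the error of these libraries.

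Between D7 and D21, miR-124-3p differed by a log2 fold change of 0.89 (SE 0.39, 95% interval 0.06 to 1.71, adjusted p = 0.0651 by edgeR), just outside the threshold, where 52.2% of the 245 passed. All 3 D21 libraries lay above the D7 libraries in TMM-normalized CPM, as was so for 64.5% of microRNAs in either direction. When counts were scaled by library totals alone, D7 replicate 2 (11.9 CPM) lay above D21 replicate 2 (10.99 CPM), so the separation depends on the scaling. The difference passed without D7 replicate 2 (1.32), D14 replicate 1 (0.92) or D14 replicate 3 (0.92), and in a fit of only D7 and D21 (0.87, adjusted p = 0.0477). From D7 to D14 the log2 fold change was 0.50 (95% interval -0.34 to 1.34, adjusted p = 0.320), and from D14 to D21 it was 0.39 (95% interval -0.43 to 1.21, adjusted p = 0.765). Without D14 replicate 1 the difference between D7 and D14 was -0.019.

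miR-124-5p, the other arm of the hairpin, held the smaller part of the counts of *mir-124*, of which 89.3% were miR-124-3p. It had 11, 2 and 21 counts at D1, 2, 6 and 3 at D7, 6, 6 and 10 at D14 and 35, 7 and 5 at D21, and reached the filter of 1.36 CPM in 2 libraries. The sums were 34 counts at D1 (exact 95% Poisson interval 23.5 to 47.5), 11 at D7 (5.49 to 19.7), 22 at D14 (13.8 to 33.3) and 47 at D21 (34.5 to 62.5), where replicate 1 alone held 35. The intervals cover counting error only, since reads carried no molecular identifiers. In a fit with no filter on low counts, miR-124-5p was higher at D21 than at D7 (log2 fold change 1.79, 95% interval 0.59 to 2.98, adjusted p = 0.0171 by edgeR), and not past the threshold against D1 (0.98, adjusted p = 0.0996). The difference from D7 was lost without D21 replicate 1 (0.94, adjusted p = 0.250) or D7 replicate 1 (1.58, adjusted p = 0.0711), in fits added after the data were seen. The ratio of the arms did not change past the threshold with age: miR-124-5p over miR-124-3p was 0.111 at D1, 0.0700 at D7, 0.131 at D14 and 0.110 at D21 (means on the log2 scale, exact permutation p = 0.601, adjusted p = 0.601).

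miR-234-3p, the main product of *mir-234*, had nearly the same level at all 4 ages. It had 4425, 1655 and 6519 counts in the D1 libraries, 2174, 2697 and 2259 at D7, 1958, 2309 and 1935 at D14 and 3834, 2302 and 1893 at D21. As CPM these were 283, 323 and 344 at D1, 298, 308 and 298 at D7, 368, 355 and 285 at D14, and 324, 385 and 301 at D21. The highest library (D21 replicate 2) was 1.36-fold above the lowest (D1 replicate 1), and every age overlapped with every other. The means were 317 ± 30.8 CPM (SD, n = 3) at D1, 301 ± 5.54 at D7, 336 ± 44.9 at D14 and 337 ± 43.2 at D21, none apart from the next by more than the spread of the libraries.

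None of the comparisons of miR-234-3p passed the test. The log2 fold change against D1 was -0.07 at D7 (95% interval -0.49 to 0.35, adjusted p = 0.816 by edgeR), 0.08 at D14 (-0.33 to 0.50, adjusted p = 0.702) and 0.09 at D21 (-0.33 to 0.51, adjusted p = 0.695). The directions at D14 and D21 turned with the scaling, to -0.24 and -0.09 with total counts, so neither age has a direction here. The intervals limit a change between D1 and D21 to a rise of 0.51 or a fall of 0.33 on the log2 scale in this fit. Between the later ages the log2 fold change was 0.16 from D7 to D14 (adjusted p = 0.542), 0.16 from D7 to D21 (adjusted p = 0.491) and 0.00 from D14 to D21 (95% interval -0.42 to 0.42, adjusted p = 1.00).

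Over the 12 libraries, the SD of the log2 level of miR-234-3p was 0.147, the smallest of the 245 microRNAs tested, whose median was 0.777. It was the smallest also with RLE size factors (0.125) and with scaling by total counts (0.151). With each library left out in turn it ranked 1 or 2, the lower place without D1 replicate 2. By the SD between replicates within ages miR-234-3p ranked 7 from the smallest. Its largest log2 fold change between any of the ages was 0.16, the third smallest, against a median of 1.62. By level it ranked 65. miR-124-3p ranked 92 from the smallest SD (0.610) and lsy-6 37 (0.388), so all 3 varied less over the libraries than the median microRNA. Within ages this was not so for miR-124-3p, whose SD between replicates (0.516) ranked 181 and lay above the median of 0.390. These ranks are a description, with no test.

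**Figure D2:**
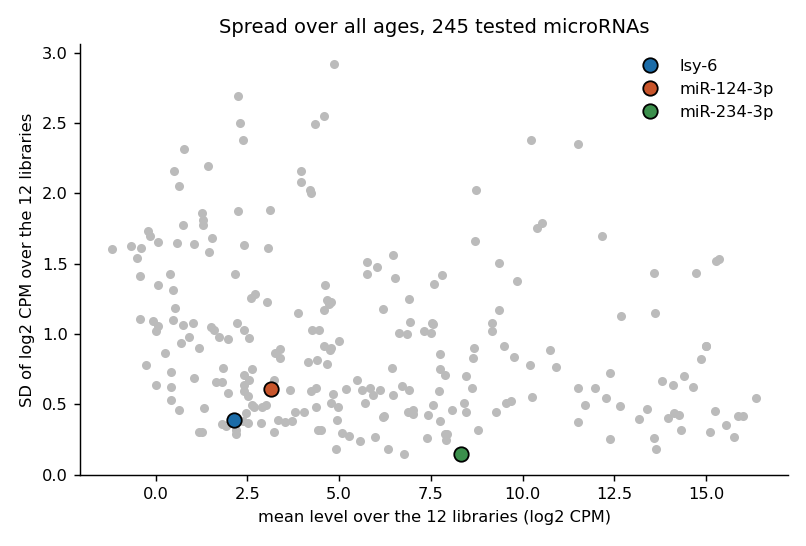
SD of log2 CPM over the 12 libraries (y axis) against the mean log2 CPM (x axis) for the 245 microRNAs tested (grey points), with lsy-6, miR-124-3p and miR-234-3p in colour. miR-234-3p is at the lowest SD of all (0.147), and lsy-6 (0.388) and miR-124-3p (0.610) lie below the median SD of 0.777.

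The counts of miR-234-3p were deep enough for a counting error of 1.24% to 2.46% of the count per library. The counting error was 8.54% to 18% for miR-124-3p and 10.5% to 25.8% for lsy-6. Against these, the SD between the replicates of an age was 1.84% to 13.4% of the mean for miR-234-3p, 7.99% to 58.3% for miR-124-3p and 8.74% to 32.8% for lsy-6. The replicates of lsy-6 spread beyond its highest counting error at D1 (30.7%) and D14 (32.8%), and not at D7 (8.74%) or D21 (11.3%). Those of miR-124-3p at D7, D14 and D21, and those of miR-234-3p at D1, D14 and D21, spread beyond their counting errors.

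miR-234-5p was almost absent: 99.96% of the counts of *mir-234* were miR-234-3p. It had 2, 0 and 2 counts at D1, 0 in all 3 libraries of D7, 1, 2 and 0 at D14 and 1, 3 and 2 at D21. The sums of 4 counts at D1 (exact 95% Poisson interval 1.09 to 10.2), 3 at D14 (0.619 to 8.77) and 6 at D21 (2.2 to 13.1) overlap, and the same interval for the 0 counts at D7 reaches up to 3.69 counts. Its ratio to miR-234-3p over the ages gave an exact permutation p of 0.0679 (adjusted p = 0.102). Without D21 replicate 1 the adjusted p was 0.0354, which rests on 12 counts.

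lsy-6, the microRNA of the left ASE taste neuron, was found in every library in spite of its narrow source. It had 90, 16 and 78 counts at D1, 41, 47 and 48 at D7, 15, 20 and 34 at D14 and 49, 24 and 21 at D21. As CPM these were 5.76, 3.13 and 4.11 at D1, 5.62, 5.36 and 6.33 at D7, 2.82, 3.08 and 5.0 at D14, and 4.15, 4.01 and 3.34 at D21. The D7 libraries were close to each other and above every library of D14 and D21, while the D1 libraries overlapped with those of all other ages. The means ran from 5.77 ± 0.504 CPM (SD, n = 3) at D7 through 4.33 ± 1.33 at D1 and 3.83 ± 0.432 at D21 to 3.63 ± 1.19 at D14.

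No comparison of lsy-6 passed the test. The log2 fold change from D7 was -0.65 at D14 (SE 0.31, 95% interval -1.33 to 0.02, adjusted p = 0.104 by edgeR) and -0.58 at D21 (SE 0.31, 95% interval -1.24 to 0.08, adjusted p = 0.125). From D7 to D14, 41.2% of the 245 microRNAs passed the test and 62.9% had libraries that did not overlap. From D7 to D21, 52.2% passed and 64.5% did not overlap, so both separations of the lsy-6 libraries were common ones. Without D14 replicate 3 the difference between D7 and D14 was -0.99 and passed (adjusted p = 0.0457). Against D1 the log2 fold change was 0.38 at D7 (95% interval -0.26 to 1.02, adjusted p = 0.343), -0.28 at D14 (-0.94 to 0.39, adjusted p = 0.438) and -0.20 at D21 (-0.86 to 0.45, adjusted p = 0.566). The slope with age was -0.020 log2 units a day (adjusted p = 0.307), and the test over the 4 ages gave F = 1.86 (adjusted p = 0.202).

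Between D14 and D21 none of the 3 members differed, as was so for all microRNAs: 0% of the 245 passed in edgeR, and DESeq2 also called 0, while 12 had an unadjusted edgeR p under 0.05, and 9.39% had libraries that did not overlap. Without D14 replicate 1 and D21 replicate 1 the test called 33, and lsy-6 (-0.25, adjusted p = 0.782), miR-124-3p (0.98, adjusted p = 0.120) and miR-234-3p (-0.0032, adjusted p = 0.988) were not among them. Both libraries were picked because the same counts placed each among the other age. Leaving them out therefore parts these ages by choice, and the 33 calls are no support for a difference.

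**Figure D3:**
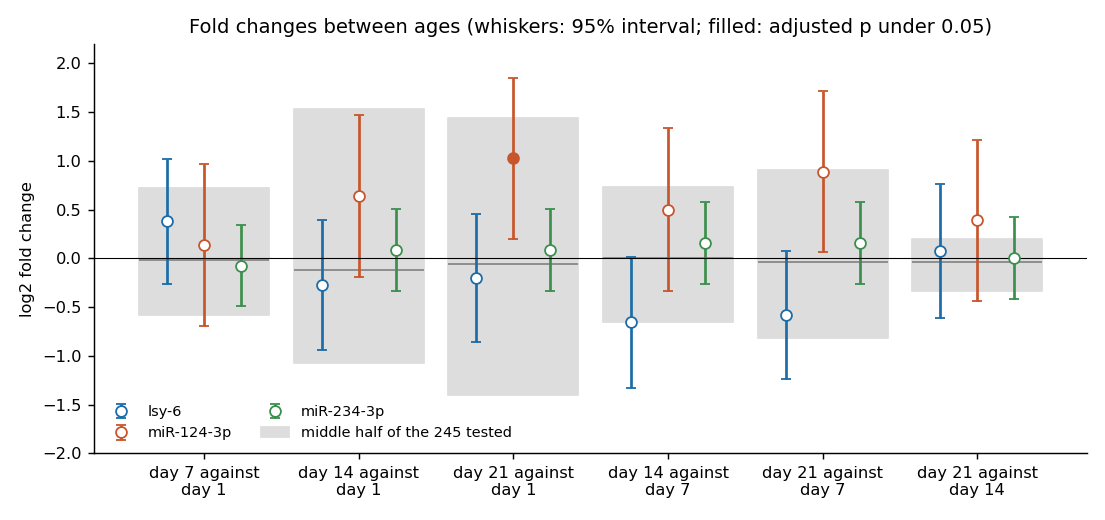
Log2 fold change (y axis) of lsy-6, miR-124-3p and miR-234-3p in the 6 comparisons between ages (x axis), with 95% intervals as whiskers, filled where the adjusted p is under 0.05. Grey boxes span the lower to the upper quartile of the 245 microRNAs tested, with their median as a line. Of the 18 points, only that of miR-124-3p at D21 against D1 (1.03) is filled, and those of miR-234-3p stay between -0.07 and 0.16.

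Ratios of counts within a library do not depend on how libraries are scaled. Each of the main arms of *mir-124* and *mir-234* was set against the other and against the main arms of *mir-1* (muscle), *mir-228* (glia) and *mir-60* (intestine), and 9 ratios were tested by an exact permutation of the one-way F over the 4 ages (two-sided by construction, 369600 assignments of the libraries, Benjamini-Hochberg over the 9). The 2 main arms were not shown to move apart from each other, and ratios to lsy-6 were not tested. miR-124-3p over miR-234-3p was 0.0211 at D1, 0.0232 at D7, 0.0283 at D14 and 0.0403 at D21, 1.91-fold higher at D21 than at D1 (exact permutation p = 0.156, adjusted p = 0.201).

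Against the muscle microRNA miR-1-3p, both differed between the ages and were higher at D21 than at D1. The log2 ratio of miR-234-3p to miR-1-3p was -5.34 ± 0.0885 at D1, -5.07 ± 0.229 at D7, -4.47 ± 0.0443 at D14 and -4.48 ± 0.260 at D21 (SD, n = 3), with every D14 and D21 library above all D1 libraries (F = 17.4, exact permutation p = 0.00188, adjusted p = 0.0169). The D21 ratio was 1.81-fold the D1 ratio, and the share of the counts taken by *mir-1* itself was lower at D21, as given above. Only the main arm of *mir-1* was used. The mean log2 CPM of its other arm, miR-1-5p, centred on its mean over the libraries, was -0.20 at D1 and 0.19 at D21. Ratios to miR-1-5p were not tested. For miR-124-3p over miR-1-3p, the log2 ratio was -10.9 ± 0.135 at D1 and -9.11 ± 0.603 at D21, a 3.46-fold difference (F = 8.37, exact permutation p = 0.00922, adjusted p = 0.0346). The first call was lost without D1 replicate 1 (adjusted p = 0.0719) or D21 replicate 2 (adjusted p = 0.0525). The second was lost without any 1 of D1 replicates 1 and 3, the 3 D7 libraries and D21 replicates 2 and 3 (adjusted p up to 0.0816).

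Of the 4 ratios to the glial and intestinal microRNAs, 2 passed. miR-234-3p over miR-228-5p had log2 ratios of -5.99 ± 0.363 at D1, -5.25 ± 0.244 at D7, -6.54 ± 0.358 at D14 and -6.48 ± 0.511 at D21 (F = 7.32, exact permutation p = 0.014, adjusted p = 0.0346). D7 was the highest age. There the share of *mir-228* itself was lowest (1.2%, against 2.23% at D1), and miR-234-3p had its lowest mean level (301 CPM). miR-124-3p over miR-228-5p did not pass (adjusted p = 0.237), and the difference between the 2 outcomes is that of the ratio of miR-124-3p to miR-234-3p above, which did not pass. miR-124-3p over miR-60-3p was 5.46-fold higher at D21 than at D1 (F = 7.17, exact permutation p = 0.0154, adjusted p = 0.0346), with log2 ratios of -5.67 ± 0.869 at D1 and -3.22 ± 0.775 at D21. miR-234-3p over miR-60-3p was 2.86-fold higher (exact permutation p = 0.0466, adjusted p = 0.0838). The share of *mir-60* itself was 0.0457% at D1 and 0.0139% at D21. The call of miR-234-3p over miR-228-5p held only without D1 replicate 2, D14 replicate 2 or D21 replicate 1, and was lost without any other library (adjusted p up to 0.123). That of miR-124-3p over miR-60-3p held only without D1 replicate 2, D14 replicate 1, D14 replicate 3 or D21 replicate 1 (adjusted p up to 0.0885 without the others).

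**Figure D4:**
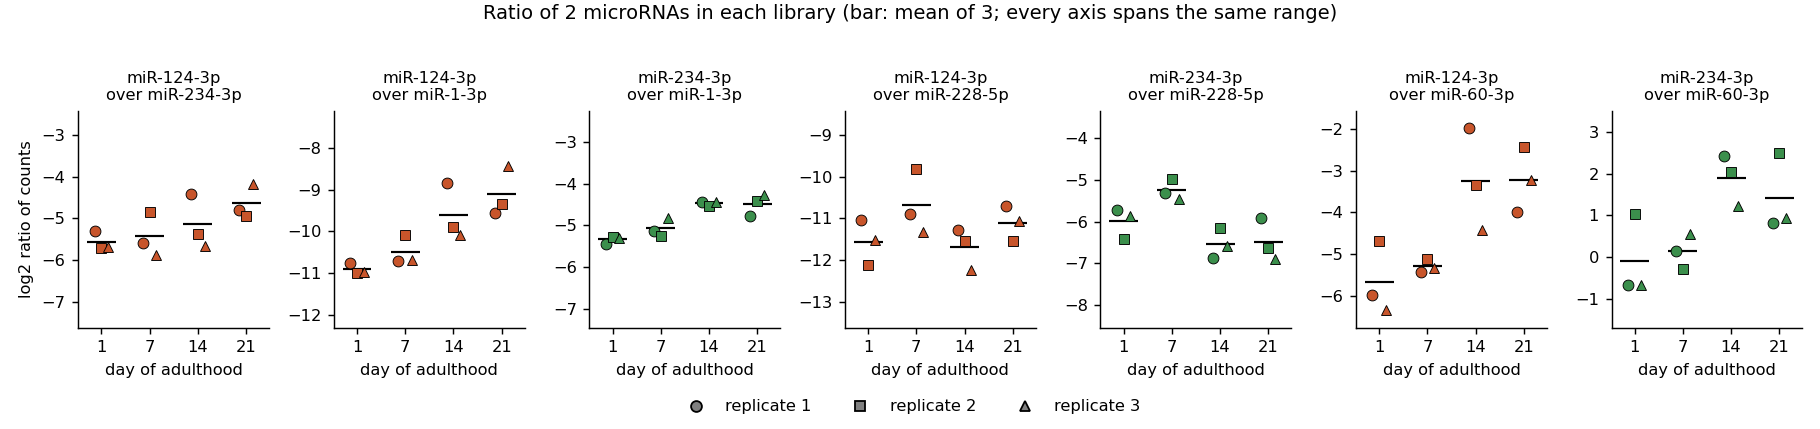
Log2 ratio of the counts of pairs of microRNAs within each library (y axis, each panel with its own offset and the same span) by day of adulthood (x axis). Symbols are the 3 replicates and bars their mean. The ratio of miR-234-3p to miR-1-3p goes from a mean of -5.34 at D1 to -4.48 at D21, and that of miR-124-3p to miR-60-3p from -5.67 to -3.22.

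The microRNAs of other genes with the pattern nearest to each member were found by the root mean square difference of log2 CPM over the 12 libraries, each centred on its own mean. For lsy-6 these were miR-238-5p (0.249), miR-64-5p (0.280), miR-65-5p (0.291), miR-232-5p (0.299) and miR-80-3p (0.304), against a median of 0.832 over all microRNAs. All 5 had their highest mean at D7, as lsy-6 did. For miR-124-3p they were miR-62 (0.316), miR-2-3p (0.359), miR-84-5p (0.380), miR-54-3p (0.393) and miR-259-5p (0.419), against 0.972, and all 5 had their highest mean at D21. For miR-234-3p they were miR-242 (0.153), miR-794-5p (0.159), miR-1-5p (0.171), miR-356b-3p (0.202) and miR-66-5p (0.212), against 0.777, which are microRNAs of little spread. The shared peak ages and the little spread follow from choosing the nearest patterns in these same libraries, and are a description only.

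Other microRNAs reported in neurons, most of them in further tissues too, passed the test in both directions. The list of *mir-2*, *mir-71*, *mir-83*, *mir-273* and *mir-791* had 9 arms, of which 8 were tested, and miR-273 had 0 counts. At D21 against D1, 3 of the 8 rose, 2 fell and 3 did not pass, with a median log2 fold change of 0.05 against -0.06 over the 245, of which 71.0% passed, so the list's share is near the background. miR-83-3p rose by 2.22 (SE 0.39, adjusted p = 1.7e-04 by edgeR) and miR-2-3p by 1.13 (SE 0.26, adjusted p = 0.00144). The authors' promoter reporter of *mir-83* rose from D1 to D7 in the intestine and not significantly in head neurons. That measurement ended at D7, and the tissues behind the rise of miR-83-3p at D21 were not tested here. Both arms of *mir-791* passed in opposite directions, miR-791-3p at 1.11 (adjusted p = 0.00524) and miR-791-5p at -0.88 (adjusted p = 0.0138). miR-71-3p, the minor arm of a gene whose loss shortens lifespan in worms, fell by 1.60 (SE 0.22, adjusted p = 1.9e-05). The main arm, miR-71-5p, held 9156305 counts against 45593 and did not pass (-0.48, adjusted p = 0.191). At D7 against D1, 2 of the 8 rose and 1 fell, where 39.2% of all passed, and at D14 against D1, 2 rose and 2 fell, where 69.0% passed. Nothing is read from these counts about the list.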

How the data were processed

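Per the study's methods, the authors used Tophat for alignment to the worm genome, miRDeep to assign reads to known microRNAs and DESeq to compare ages. Versions are not given in the sources used here. The deposited table holds whole counts per microRNA line, with the authors' CPM (the count over the library total) beside them. Another 6 deposited tables of the authors' comparisons (means, fold changes and p-values) were not used. The table's 375 named lines gave 368 mature microRNAs (7 on several lines, where the line with the largest total was used), and 1 unnamed line held 0 counts.

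Counts were analysed in R 4.3.3 with edgeR 4.0.16: filterByExpr by age (minimum count 10) kept 245 microRNAs, which held 99.997% or more of each library, TMM scaled the libraries, and a quasi-likelihood fit with age as the only term left 8 residual degrees of freedom. The largest total was 2.92 times the smallest. All 12 replicate pairs differed beyond the noise of counting (the lowest chi-square for each degree of freedom was 162). The test was checked on simulated counts. The members and lists were chosen with earlier results of these data known. The text names every line of the 3 genes, up to 4 arms of the other neuronal list by smallest adjusted p (miR-791-5p and miR-71-5p were added after their values were seen), the main arm of each tissue marker and the 5 nearest patterns of each tested member. Ratios used counts plus 0.5.

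The replicate numbers are shared between ages, and the labels do not say that a number marks a cohort. Deviations of same-numbered libraries from their age means correlated over 0.1 in 5 of 18 pairs, and in every pair only between D1 and D21 (0.217, 0.415 and 0.413). The alternatives were RLE size factors, library totals, no filter, 10 or more counts throughout, DESeq2 1.42.0, the replicate number as a block, a fit with 2 ages at a time, summed lines, 1 added count in ratios, each library left out in turn, and D14 replicate 1 with D21 replicate 1 left out, which earlier results had placed among the other age. Positions are from the Ensembl annotation of WBcel235. Sequences are not shown.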

Additional observations from a re-analysis of the deposited data

How the results depend on the processing

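The 33 results of the members and their ratios had 624 values under the alternatives, of which 532 kept direction and call, 47 turned direction, 34 lost the call and 11 gained it. The turns were in differences that had not passed. For miR-234-3p, D14 against D1 was -0.24 with library totals, -0.037 with no filter, -0.028 with 10 or more counts throughout, -0.015 with summed lines and -0.0020 without D14 replicate 1 and D21 replicate 1. D21 against D1 was -0.092 (totals), -0.062 (no filter), -0.0085 (only the 2 ages), -0.012 (summed lines) and -0.0052 (both left out), D14 against D7 was -0.073 with totals, and D21 against D14 was -0.025 with no filter, -0.029 with only the 2 ages and -0.0032 with both left out. Its slope was -0.0048 with totals and -0.0019 with no filter. With both left out, miR-124-3p was -0.012 at D14 against D7, lsy-6 was -0.25 at D21 against D14, and the count of calls at D21 against D14 was 33 in place of 0.

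For miR-124-3p, totals gave 0.83 at D21 against D1 and a slope of 0.041, both without a call. D21 against D7 passed with only the 2 ages (0.87) and with both left out (0.97), where the test over the 4 ages also passed (F = 3.93). The libraries left out were chosen by their place in the same counts, so calls gained without them lend no support. Over all microRNAs, scaling by totals shifted the median from -0.12 to -0.41 at D14 against D1, from -0.06 to -0.26 at D21 against D1 and from 0.01 to -0.21 at D14 against D7, with 69 higher and 99 lower, 77 and 97, and 44 and 55.

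With each library left out in turn, log2 fold changes of miR-124-3p were -0.40 to 0.24 (D7 against D1), -0.0095 to 0.78 (D14 against D1), 0.70 to 1.05 (D21 against D1), -0.019 to 0.91 (D14 against D7) and 0.69 to 1.32 (D21 against D7), its F 1.48 to 4.38 and its slope 0.039 to 0.055. Those of miR-234-3p were -0.082 to 0.047 (D14 against D1), -0.078 to 0.055 (D21 against D1) and -0.056 to 0.041 (D21 against D14), and those of lsy-6 -0.99 to -0.43 (D14 against D7) and -0.12 to 0.44 (D21 against D14). For miR-234-3p at D14 and D21 against D1, all of these lay below the 0.084 and 0.088 of the main fit. F was 2.52 to 7.92 for miR-234-5p over miR-234-3p, 6.14 to 12.1 for miR-124-3p and 12.6 to 31.3 for miR-234-3p over miR-1-3p, 4.47 to 12.6 for miR-234-3p over miR-228-5p, and 5.29 to 11.1 for miR-124-3p and 3.32 to 8.56 for miR-234-3p over miR-60-3p. The cause of these shifts was not tested.

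With the replicate number as a block, miR-124-3p at D21 against D1 was 1.04 (adjusted p = 0.0351 by edgeR), 171 microRNAs were called there in place of 174, and no call of a member changed in any comparison. At 15 to 90 counts per library, lsy-6 has a counting error of 10.5% to 25.8%, and 3 libraries per age limit the precision of all 3 microRNAs.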
